A study of Mus musculus with 6 samples.

Results

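The mitochondrial ribosomal proteins were examined in mouse kidney epithelial cells that lost their attachment. The members are the rows of the authors' deposited table that name 1 gene beginning with Mrpl or Mrps and a digit, without pseudogenes. They are 70 of 37757 rows, 44 Mrpl and 26 Mrps genes, and all 70 were among the 14748 rows the authors tested. The cells came from C57/Bl6J mice 8 weeks of age and had the genotype Bim-/- Bmf-/- in both groups. Bim (Bcl2l11) and Bmf are BH3-only proteins that promote apoptosis, so attached and suspended cells alike are labelled as lacking them, and wild-type cells were not analysed here. The attached group holds 3 libraries of cells kept on their culture surface, and the suspended group 3 libraries of cells held in suspension for 4 h, which the titles name Anoikis, a form of death set off by loss of anchorage.

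Mitochondria carry their own ribosome, which translates the few messenger RNAs encoded in mitochondrial DNA, all of them for subunits of the respiratory chain and ATP synthase. Its ribosomal RNAs are made inside the organelle, whereas its proteins are encoded in the nucleus, translated in the cytosol and imported. Proteins named Mrpl belong to the large subunit, which joins amino acids, and those named Mrps mostly to the small subunit, which reads the messenger. Some have a counterpart in bacterial ribosomes and others are found only in mitochondria. The kidney tubule is rich in mitochondria, on which its transport work depends.

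Each gene has 1 FPKM per condition (fragments scaled to transcript length and library size), which the authors made over the libraries of that condition. A call below is the authors' q under 0.05, from their own test across the table. No library's own values were used, which leaves the sequencing depth unknown and gives no error for any FPKM. Whether each library had its own culture or animal is not in the labels, and the authors' p-values may rest on technical spread alone. In such bulk samples, FPKM are relative levels, so a change in the RNA per cell and one in the mix of cells cannot be told apart.

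The labelled cell type was checked first. All 11 kidney epithelial markers were tested, and they summed to 3970 FPKM attached and 3851 FPKM suspended per the authors' deposited table, with 3 called higher and 5, Pax2 and Pax8 among them, called lower. Of 5 endothelial markers all were below 1 FPKM in both conditions, with sums of 0.353 and 0.298 FPKM per the authors' deposited table. Fibroblast markers summed to 0.225 and 1.97 FPKM, with Col3a1 listed at 0 in both, podocyte markers to 4.13 and 20.6 FPKM, and leukocyte markers to 46.8 and 52.4 FPKM per the authors' deposited table. Nphs1 and Wt1, which define podocytes, were listed at 0 attached and below 1 FPKM suspended, and most of the leukocyte sum was Cd14 (45.1 and 39.8 FPKM), per the authors' deposited table. The leukocyte marker Ptprc (1.42 to 12.4 FPKM) was called higher, as were Pdgfra, Podxl and Synpo, per the authors' deposited table. Their part in the changes below was not tested.

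Before the values, the stretches in front of 5 members are shown. They are the 3 members that fell most (Mrps27, Mrpl12 and Mrpl49), Mrps12, which starts beside a gene on the other strand, and Mrps18c, the member that rose. Each run has 280 bases, from 250 before the start site to 30 from the start onwards, 5′ to 3′ on the gene's strand, from RefSeq's promoter table (GRCm38.p6, the assembly of the mm10 build the authors name). Capitals mark the letters of 4 motifs searched on both strands and described further on.
Mrps27, chr13:99344536-99344815, plus strand: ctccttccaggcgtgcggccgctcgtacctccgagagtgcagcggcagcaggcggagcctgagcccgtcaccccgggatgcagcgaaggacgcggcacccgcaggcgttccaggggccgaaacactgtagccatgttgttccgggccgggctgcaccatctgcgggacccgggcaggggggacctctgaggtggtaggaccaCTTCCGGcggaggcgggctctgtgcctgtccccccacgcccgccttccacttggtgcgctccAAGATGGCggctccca
Mrpl12, chr11:120484387-120484666, plus strand: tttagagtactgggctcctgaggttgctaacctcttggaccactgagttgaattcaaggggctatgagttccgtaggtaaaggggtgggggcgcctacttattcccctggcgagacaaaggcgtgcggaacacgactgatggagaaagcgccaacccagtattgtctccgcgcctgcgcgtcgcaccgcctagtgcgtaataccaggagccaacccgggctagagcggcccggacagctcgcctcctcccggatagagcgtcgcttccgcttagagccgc
Mrpl49, chr19:6057726-6058005, minus strand: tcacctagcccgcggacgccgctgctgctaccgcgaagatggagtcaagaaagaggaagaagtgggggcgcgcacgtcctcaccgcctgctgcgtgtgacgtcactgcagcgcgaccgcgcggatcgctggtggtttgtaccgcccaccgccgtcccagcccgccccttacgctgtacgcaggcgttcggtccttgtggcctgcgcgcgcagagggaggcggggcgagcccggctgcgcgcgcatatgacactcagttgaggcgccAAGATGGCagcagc
Mrps12, chr7:28741792-28742071, minus strand: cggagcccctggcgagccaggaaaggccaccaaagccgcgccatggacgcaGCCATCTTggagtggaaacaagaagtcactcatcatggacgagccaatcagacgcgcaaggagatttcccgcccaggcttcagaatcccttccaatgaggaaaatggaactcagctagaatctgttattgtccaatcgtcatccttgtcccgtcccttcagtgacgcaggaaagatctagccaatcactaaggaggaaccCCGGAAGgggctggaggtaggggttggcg
Mrps18c, chr5:100798509-100798788, plus strand: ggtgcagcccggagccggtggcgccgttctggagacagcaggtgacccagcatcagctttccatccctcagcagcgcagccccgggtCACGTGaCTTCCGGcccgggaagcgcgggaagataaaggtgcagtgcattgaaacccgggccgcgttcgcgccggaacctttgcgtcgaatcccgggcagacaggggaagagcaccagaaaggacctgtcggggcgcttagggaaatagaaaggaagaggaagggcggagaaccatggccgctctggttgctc

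Transcripts of mitochondrial ribosomal proteins were mostly lower in suspended cells. Of the 70 genes, 36 were called lower, 1 was called higher and 33 were not called per the authors' deposited table. Calls were common over the whole table, with 26.3% of tested rows called lower and 24.7% called higher. Among the 7226 tested rows whose mean FPKM lay in the range of the members, 8.79 to 122 FPKM, 35.3% were called lower and 22.6% higher. The members stood at 51.4% called lower and 1.43% called higher. FPKM were lower in suspension for 63 of 70 members, that is 90.0%. This compares with 51.9% of all tested rows and 60.2% of those in the members' range of mean FPKM. No test of this difference between the members and other genes was run, since members are not replicates and were proposed with results known.

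The falls were small for most members. Their median log2 fold change was -0.38, a level 23.3% lower, with quartiles of -0.63 and -0.17, beside a median of -0.04 over all tested rows and -0.15 over rows in the same FPKM range, all from the authors' deposited table. A fall of at least 2-fold was called for 3 members, 4.29%, while 7.12% of all tested rows were called lower by that much. The share called lower was thus above the background, and the share called with a fall of at least 2-fold was not. Summed over the 70 genes, FPKM went from 2580 attached to 1911 suspended per the authors' deposited table.

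**Figure D1:**
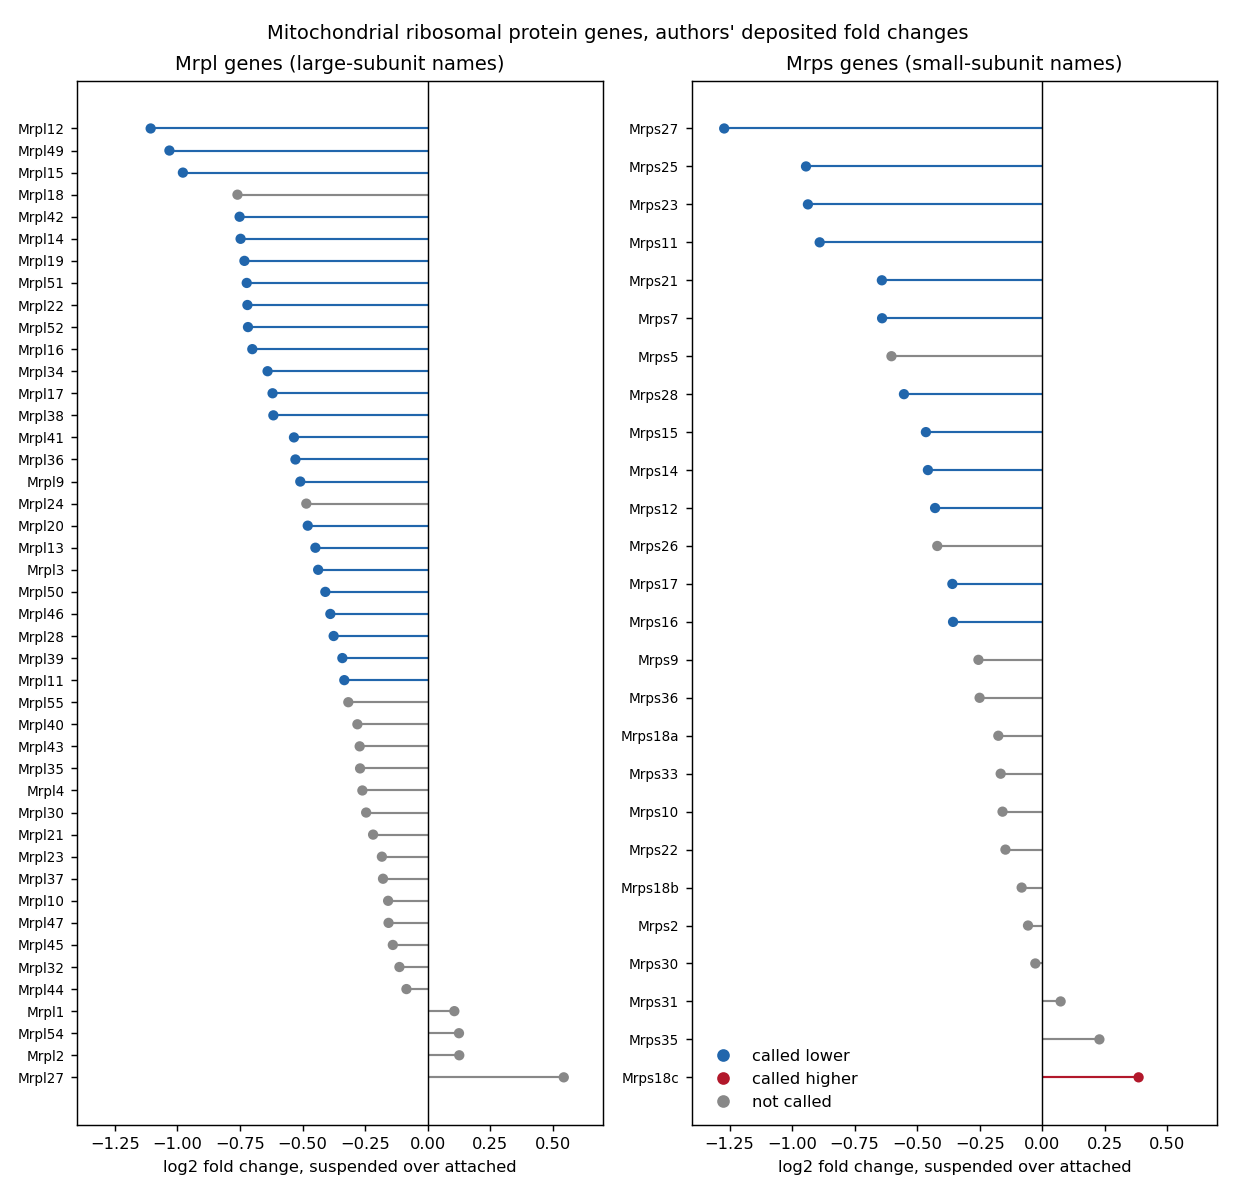
Log2 fold change (suspended over attached) of each Mrpl gene (left) and Mrps gene (right) per the authors' deposited table, 1 value per gene, coloured by call. Most bars point left, 36 members were called lower, and Mrps18c was the member called higher.

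Mrps27, a small-subunit protein with pentatricopeptide repeats, a fold that binds RNA, fell most. It went from 12.9 FPKM attached to 5.35 FPKM suspended, 2.41-fold lower (q = 0.000185), per the authors' deposited table. The row lies on chromosome 13, positions 99344786 to 99415561 (mm10). It was also among the 3 members with the lowest mean level, beside Mrpl35 (9.61 and 7.97 FPKM, q = 0.0818) and Mrpl23 (9.42 and 8.29 FPKM, q = 0.456), per the authors' deposited table.

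Mrpl12, the protein of the flexible stalk to which translation factors bind, came next. It went from 31.3 to 14.5 FPKM, 2.15-fold lower (q = 0.000185), per the authors' deposited table, on chromosome 11, positions 120484613 to 120489065. Mrpl12 is also described as a partner of the mitochondrial RNA polymerase. The other stalk proteins had smaller differences: Mrpl11 went from 12.6 to 10.01 FPKM (q = 0.0229), and Mrpl10, which anchors Mrpl12, stood at 35.3 and 31.6 FPKM (q = 0.376), per the authors' deposited table. So 2 of these 3 neighbours in the ribosome were called lower, beside 26.3% of all tested rows. Their falls were of unequal size, and whether the falls differ was not tested.

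Mrpl49, a large-subunit protein found only in mitochondria, completed the members that fell at least 2-fold as deposited. It went from 30.4 to 14.8 FPKM, 2.04-fold lower (q = 0.000185), per the authors' deposited table. The annotated gene shares exon sequence with Syvn1, and strand-specific counting is not given in the sources used here, so its value is uncertain. Centred on the median of genes with at least 1 FPKM in both conditions, 1 of the 3 falls, that of Mrps27, reached 2-fold, with Mrpl12 at -0.999 and Mrpl49 at -0.92 on the log2 scale. Mrpl15, at 45.8 and 23.3 FPKM (1.97-fold lower, q = 0.000185), was just short of 2-fold per the authors' deposited table.

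The next falls were in the small subunit. Mrps25 went from 24.7 to 12.8 FPKM (q = 0.00514) and Mrps23 from 63.8 to 33.4 FPKM (q = 0.000185) per the authors' deposited table. Both lack a bacterial counterpart, and Mrps25 shares exon sequence with Nr2c2. Mrps11, which has a bacterial counterpart near the messenger's path, went from 17.1 to 9.24 FPKM, 1.85-fold lower (q = 0.00171), per the authors' deposited table. The 10 members with the lowest log2 fold changes also included Mrpl18 (32.5 and 19.2 FPKM), which missed the threshold with q = 0.0726, per the authors' deposited table. Mrpl42 (56.2 to 33.4 FPKM, q = 0.000185) and Mrpl14 (153 to 91.4 FPKM, q = 0.0364) completed the 10 per the authors' deposited table. Mrpl18 shares exon sequence with Tcp1 and Mrpl14 with Tmem63b, so their values are uncertain too.

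The 5 members with the highest mean FPKM all fell. Per length of transcript, Mrpl14 and Mrpl52 stood highest, and Mrpl52 went from 145 to 88.2 FPKM (q = 0.000185) per the authors' deposited table. Mrps21 went from 103 to 65.8 FPKM (q = 0.000185), Mrps14 from 86.5 to 63.0 FPKM (q = 0.00451) and Mrpl17 from 80.8 to 52.6 FPKM (q = 0.00335) per the authors' deposited table. Across the 70 genes, the log2 fold change had a Pearson r of -0.13 and a Spearman rho of -0.18 with the log2 of the mean FPKM, given as a description of points that share the same libraries. With the log2 length of the longest annotated coding transcript r was -0.06 and rho 0.01 over the same 70 genes. With the log2 of the attached FPKM, which also enters the fold change, r was -0.29 and rho -0.35.

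**Figure D2:**
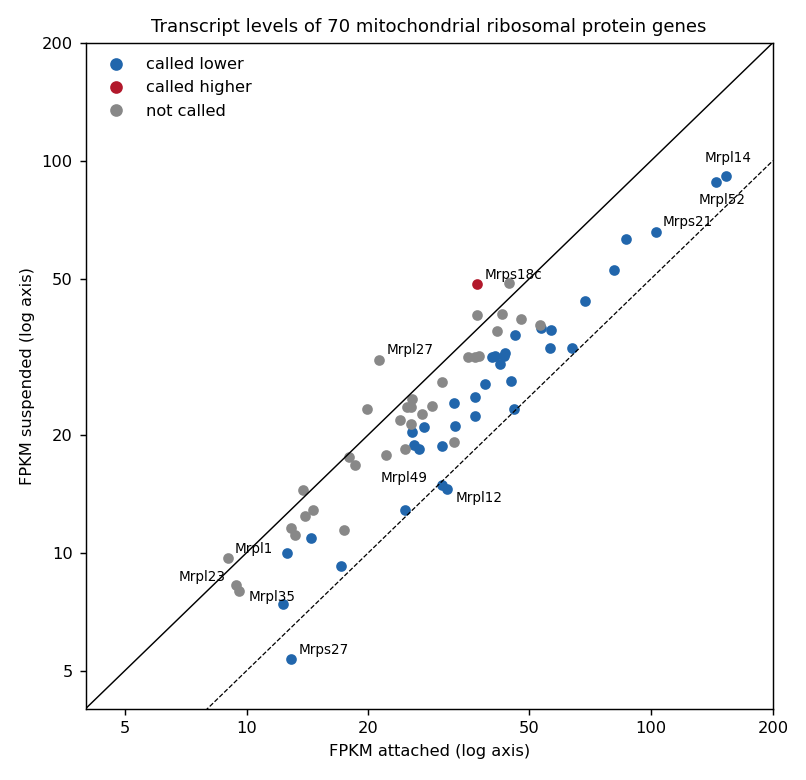
FPKM in attached (horizontal) and suspended cells (vertical), both on log axes, 1 point per gene from the authors' deposited table; the solid line marks equal levels and the dashed line a level 2-fold lower in suspension. Mrps27, Mrpl12 and Mrpl49 lie on or below the dashed line, and 7 points lie above the solid one.

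Mrps18c was the member that rose. It went from 37.1 to 48.5 FPKM, 1.31-fold higher (q = 0.0162), per the authors' deposited table, on chromosome 5, positions 100798627 to 100804471. It is 1 of 3 relatives of the bacterial protein S18, each at its own place in the mitochondrial ribosome. Mrps18b, also in the small subunit, stood at 42.9 and 40.5 FPKM (q = 0.803) per the authors' deposited table. Mrps18a, which despite its name sits in the large subunit, stood at 41.6 and 36.8 FPKM (q = 0.336) per the authors' deposited table. The 3 relatives were thus present at similar levels in attached cells, and Mrps18c alone among them was called, although the difference between them was not tested.

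A further 6 members had higher FPKM in suspension and were not called. Mrpl27 had the largest difference, with 21.3 and 31.1 FPKM (q = 0.245) per the authors' deposited table, and the gene shares exon sequence with Eme1. Mrps35 stood at 19.8 and 23.2 FPKM (q = 0.176), Mrpl2 at 37.1 and 40.5 FPKM (q = 0.889) and Mrpl54 at 44.6 and 48.7 FPKM (q = 0.460) per the authors' deposited table. Mrpl1 stood at 8.99 and 9.68 FPKM (q = 0.550) and Mrps31 at 13.8 and 14.5 FPKM (q = 0.693) per the authors' deposited table. The row of Mrpl2 spans 18 other coding genes, the most of any member.

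By subunit, the counts were nearly alike. Of 46 proteins placed in the large subunit 24 were called lower, and of 23 in the small subunit 12 were called lower and 1 higher, per the authors' deposited table. Median log2 fold changes were -0.38 and -0.42. By origin, 24 of 43 proteins with a bacterial counterpart and 12 of 26 found only in mitochondria were called lower, with medians of -0.44 and -0.31, per the authors' deposited table. Within the small subunit 9 of 14 with a bacterial counterpart and 3 of 9 without were called lower, with medians of -0.44 and -0.17. Mrps18a and Mrps18b, not called, were classed here as found only in mitochondria, although they are relatives of the bacterial S18. The split by origin depends on that choice. These classes were compared by counts alone. All counts here stand beside 26.3% of all tested rows called lower and 24.7% called higher. In the members' range of mean FPKM, 35.3% of tested rows were called lower.

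Small groups by place in the large subunit, formed after values were seen, are given as values only, beside the 26.3% of all tested rows called lower. Around the exit tunnel, through which the new protein leaves, 1 of 5 was called lower, Mrpl22 (45.2 to 27.4 FPKM, q = 0.000185), per the authors' deposited table. The others, Mrpl23, Mrpl24, Mrpl45 and Mrpl47, were not called, with log2 fold changes from -0.48 to -0.14 per the authors' deposited table; Mrpl45 helps hold the ribosome at the inner membrane. In the central protuberance, which faces the small subunit, 2 of 6 were called lower, Mrpl38 (56.7 to 37.0 FPKM, q = 0.000185) and Mrpl46 (27.4 to 20.9 FPKM, q = 0.0204), per the authors' deposited table. Mrpl18, Mrpl27, Mrpl40 and Mrpl55 there were not called. Of 3 proteins that reach towards the site of peptide bond formation, Mrpl3 (32.6 to 24.1 FPKM, q = 0.00128) and Mrpl16 (30.4 to 18.7 FPKM, q = 0.000185) were called lower and Mrpl2 was not, per the authors' deposited table.

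In the small subunit, proteins of the head and the decoding site had 3 of 5 called lower, beside 26.3% of all tested rows and 51.4% of the members. That group too was formed after values were seen. Mrps12, at the decoding site, went from 43.5 to 32.4 FPKM (q = 0.00757) and Mrps7 from 32.7 to 21.0 FPKM (q = 0.00254) per the authors' deposited table. Mrps7 shares exon sequence with Gga3 and Mif4gd, so its value is uncertain. Mrps14 is given above. Mrps9 and Mrps10 were not called. Mrps28 went from 36.7 to 25.02 FPKM (q = 0.000676) per the authors' deposited table.

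Some members have been described outside the ribosome. Mrpl41, reported to bind the survival protein BCL2, went from 26.7 to 18.4 FPKM (q = 0.00171) per the authors' deposited table. Mrps30, also known as programmed cell death protein, stood at 17.9 and 17.5 FPKM (q = 0.904) per the authors' deposited table; it sits in the large subunit. Mrps36, now known as a subunit of the 2-oxoglutarate dehydrogenase complex and not of the ribosome, stood at 13.2 and 11.1 FPKM (q = 0.311) per the authors' deposited table. The gene names thus do not all give a place in the small subunit.

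Beside these and Mrpl36, described below, 12 members were called lower: Mrpl9, Mrpl13, Mrpl19, Mrpl20, Mrpl28, Mrpl34, Mrpl39, Mrpl50, Mrpl51, Mrps15, Mrps16 and Mrps17. Nearest the threshold, Mrps16 (q = 0.0444) and Mrpl19 (q = 0.0455) were just inside it and Mrpl43 (q = 0.0509) was just outside, per the authors' deposited table. Over all 36 called lower, log2 fold changes ran from -1.27 to -0.33 with a median of -0.62 per the authors' deposited table. Over the 33 not called they ran from -0.76 to 0.54 with a median of -0.17, and 27 of these had lower FPKM in suspension. Uncalled members not named elsewhere here were Mrpl4, Mrpl21, Mrpl30, Mrpl32, Mrpl37, Mrpl44, Mrps2, Mrps5, Mrps22, Mrps26 and Mrps33. Of the uncalled members, 8 had q between 0.05 and 0.1, and 10 had q above 0.5, per the authors' deposited table. A q above the threshold does not show that the levels were the same.

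Rows that take in other genes limit what can be said of single members. Of 24 members whose row spans another coding gene 10 were called lower, and of 46 whose row spans none 26 were called lower and 1 higher, per the authors' deposited table. Exons shared with another coding gene were annotated for 17 members, of which 9 were called lower. These counts, and those of the rows below, stand beside 26.3% of all tested rows called lower and 24.7% called higher. In the members' range of mean FPKM, 35.3% of tested rows were called lower. Mitochondrial ribosomal genes also stood in 6 rows that name a second gene, which were not counted as members. Of these, Mrps6 with Slc5a3 (629 to 202 FPKM), Ccdc142 with Mrpl53 (69.6 to 36.9), Mrps24 with Urgcp (52.3 to 38.0) and Mrps34 with Nme3 (59.0 to 41.5 FPKM) were called lower per the authors' deposited table. The rows of Mrpl33 with Bre and of Mrpl48 with D630004N19Rik were not called, and no row can say which of its genes moved.

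The neighbourhood of the genes was then described. The 70 members lay on 17 chromosomes, with at most 9 on any, chromosome 11, where 5 of 9 were called lower. A coding gene on the opposite strand with its start within 1000 bases, here a head-to-head neighbour, was annotated for 30 members, that is 42.9%, against 16.3% of 11797 tested coding genes (GENCODE M21). Mrps11 and Mrpl46 are such neighbours of each other, 412 bases apart on chromosome 7, and both were called lower. Their annotated exons overlap, so that reads of the shared stretch cannot be assigned without strand. Outside this pair, 27 neighbours had a tested row of their own, of which 9 (33.3%) were called lower, 3 (11.1%) higher and 15 not, per the authors' deposited table. Over all tested rows 26.3% were called lower and 24.7% higher.

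Neighbours of called members were called in either direction or not at all. Ptcd2, 81 bases from Mrps27, went from 16.8 to 12.4 FPKM (q = 0.00476) per the authors' deposited table. Ndufs6, a respiratory chain subunit, starts 29 bases from the first annotated start of Mrpl36, position 73328513 of chromosome 13, while the deposited row of Mrpl36 begins downstream of it, at 73331009. Ndufs6 went from 83.3 to 65.8 FPKM (q = 0.0181), while Mrpl36 went from 38.8 to 26.9 FPKM (q = 0.000518), per the authors' deposited table. Helq, a DNA helicase 29 bases from Mrps18c, rose with it, from 6.43 to 14.6 FPKM (q = 0.000185), per the authors' deposited table. In the other direction Pnpla7, 935 bases from Mrpl41, went up from 2.75 to 7.98 FPKM (q = 0.000185) per the authors' deposited table. Sars2, the mitochondrial seryl-tRNA synthetase 172 bases from Mrps12, stood at 5.24 and 4.85 FPKM (q = 0.613), and Fau, 59 bases from Mrpl49, at 269 and 234 FPKM (q = 0.129), per the authors' deposited table. Over the 27 pairs the log2 fold changes had a Pearson r of 0.14 and a Spearman rho of 0.10, a description over genes of the same libraries, some with overlapping exons.

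**Figure D3:**
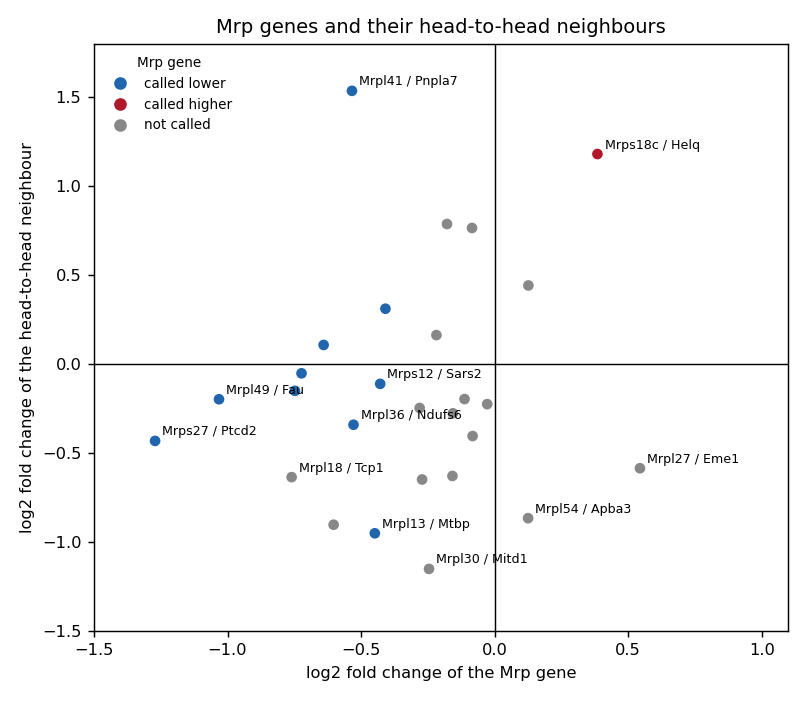
Log2 fold change of each Mrp gene (horizontal) and of its head-to-head neighbour (vertical) per the authors' deposited table, 27 pairs, coloured by the call of the Mrp gene. Points spread widely (Pearson r 0.14), with Mrps18c and Helq at upper right and Mrps27 and Ptcd2 at lower left.

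Promoter windows of 300 bases were matched for 62 of 70 members. The letters AAGATGGC, the core bound by the factor YY1, stood on either strand in 11 of 62 (17.7%), against 2.88% of 27025 genes with a window and 5.67% of 5239 whose mean FPKM lay in the members' range. CCGGAAG, bound by ETS factors such as GABP, stood in 20 (32.3%, against 9.12% and 21.4%). CGCATGCG, part of the site of NRF1, stood in 7 (11.3%, against 1.91% and 4.60%), and CACGTG, an E-box, in 5 (8.06%, against 7.24% and 11.0%). YY1, GABP and NRF1 are known to act on nuclear genes for mitochondrial proteins, and E-boxes can be bound by MYC.

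The YY1 letters held a narrow place only where they lay on the gene's own strand. In the 7 windows that have them on the gene's own strand, they began 11 to 27 bases downstream of the start site, as in the runs of Mrps27 and Mrpl49 shown above. The other 4 had them on the opposite strand, upstream of the start. Of all 62 members with a window 31 were called lower, beside 26.3% of all tested rows. Of the 11 members with the YY1 letters 7 were called lower and 4 were not. Their median log2 fold change was -0.53, beside -0.36 without these letters. For the ETS letters, 10 of 20 were called lower and the medians were -0.43 and -0.35. The medians of the other motifs leaned the other way. For NRF1, 4 of 7 were called lower, with medians of -0.34 with the letters and -0.38 without. For the E-box, 2 of 5 were called lower and 1 higher, with medians of -0.18 and -0.38. The ETS and YY1 motifs can share 3 letters (AAG), but no matches overlapped in the members' windows, and the window of Mrpl12, which fell 2.15-fold, held none of them. A match is a description of the window and says nothing of binding.

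Other genes of mitochondrial protein synthesis are given by list, to be read beside the 26.3% of all tested rows called lower and the 24.7% called higher. Of 7 mitoribosome proteins with other names, 4 (57.1%) were called lower: Chchd1 (52.5 to 32.9 FPKM), Ptcd3 (23.9 to 15.3), Mrp63 (15.8 to 10.3) and Gadd45gip1 (5.17 to 2.67 FPKM, q = 0.0197), the first 3 with q = 0.000185, per the authors' deposited table. Dap3, a small-subunit protein named as death-associated, stood at 44.6 and 41.9 FPKM (q = 0.625) per the authors' deposited table, and Aurkaip1 and Ict1 were not called either. Of 13 tested translation factors 6 (46.2%) were called lower and 0 higher, with a median log2 fold change of -0.39 per the authors' deposited table. Tufm, the elongation factor that brings transfer RNA to the ribosome, went from 15.2 to 8.76 FPKM (q = 0.000185) per the authors' deposited table. Gfm2, which helps recycle ribosomes, went from 14.4 to 7.40 FPKM (q = 0.00157) and Mtfmt, which formylates the initiator transfer RNA, from 11.9 to 6.13 FPKM (q = 0.000185) per the authors' deposited table.

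Of 20 assembly and ribosomal RNA modification factors 5 were called lower and 0 higher, with a median of -0.26, per the authors' deposited table. Their 25% called lower was not above that of all tested rows. Noa1, a GTPase needed for the small subunit, went from 17.1 to 9.21 FPKM and Mtg1, a GTPase of the large subunit, from 11.4 to 6.29 FPKM (both q = 0.000185) per the authors' deposited table. Mitochondrial aminoacyl-tRNA synthetases, which charge transfer RNA, had 11 of 17 (64.7%) called lower and 0 higher, with a median of -0.66, per the authors' deposited table. Yars2, which charges the transfer RNA for tyrosine, went from 20.8 to 7.77 FPKM (q = 0.000185) per the authors' deposited table. Of 23 tested genes for protein import, 14 (60.9%) were called lower and 0 higher, with a median of -0.42, and all 23 had lower FPKM in suspension, per the authors' deposited table. Timm9, a carrier chaperone between the membranes, went from 18.03 to 5.34 FPKM (q = 0.000185) per the authors' deposited table.

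**Figure D4:**
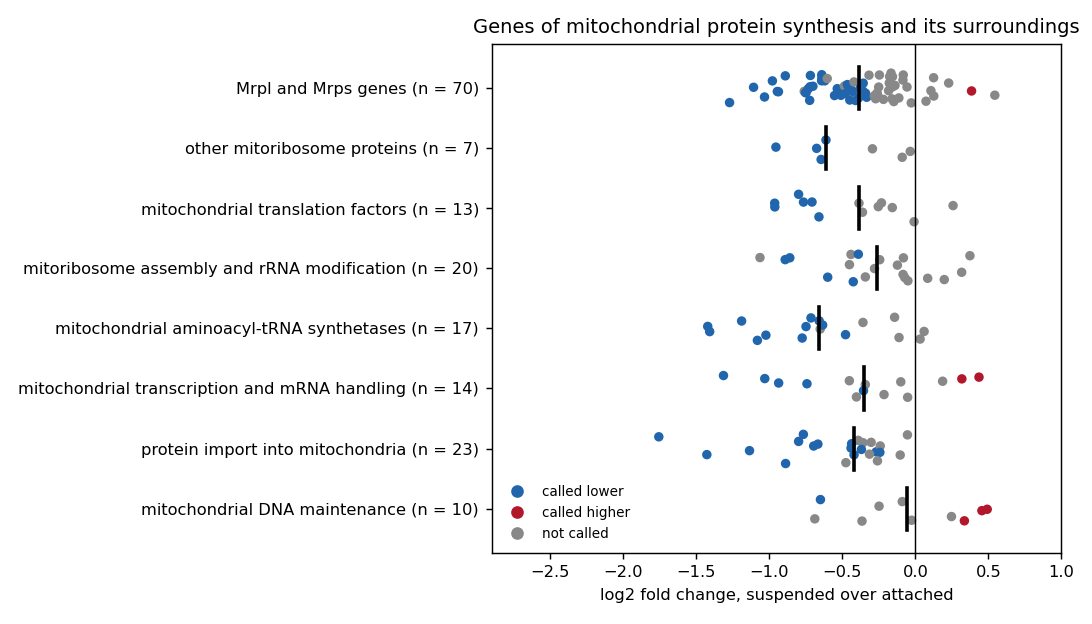
Log2 fold change of each tested gene in lists of mitochondrial gene expression, from the authors' deposited table, coloured by call; black bars are the medians of the lists and vertical scatter for display only. Medians of the upper 7 lists lie below 0, from -0.66 to -0.26, and that of mitochondrial DNA maintenance at -0.06.

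Of 14 tested genes for transcription and handling of mitochondrial RNA, 5 (35.7%) were called lower and 2 (14.3%) higher, with a median of -0.35, per the authors' deposited table. Polrmt, the mitochondrial RNA polymerase, went from 11.9 to 4.78 FPKM and Pnpt1, an RNA-degrading enzyme, from 18.2 to 8.90 FPKM (both q = 0.000185) per the authors' deposited table. Trmt10c and Ptcd1, both of transfer RNA processing, were called higher, each with q = 0.0382, Trmt10c going from 8.94 to 11.2 FPKM, per the authors' deposited table. For transcripts made in the mitochondria, 3 of 10 tested rows (30%) were called higher and 0 lower per the authors' deposited table. Over all tested rows 24.7% were called higher. All 10 rows had higher FPKM in suspension, but the 7 not called were mt-Nd6 and transfer RNAs, with q from 0.118 to 0.690. The called rows include some that name several genes. The summed FPKM of the mitochondrially encoded rows, which includes short transfer RNAs, was 2.19 times that of attached cells. FPKM are relative, so the higher mitochondrial values stood beside each of the falls above, and their part in them was not tested. With FPKM scaled to the same sum without mitochondrially encoded and microRNA rows, the members' median log2 fold change was -0.28 in place of -0.38.

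Set beside the cytosolic ribosome and the respiratory chain, the members had a larger share called lower than the first and a share near that of the second. Of 79 tested cytosolic ribosomal protein rows, 8 were called lower and 1 higher, with a median log2 fold change of -0.12, per the authors' deposited table. Many of those genes have near-identical copies, which makes their FPKM uncertain. Of 74 tested rows of nuclear-encoded respiratory chain subunits, 39 were called lower and 1 higher, with a median of -0.32, per the authors' deposited table. Lower FPKM in suspension were found for 89.9% of the first and 94.6% of the second. The share was 51.9% of all tested rows and 57.3% of those of at least 1 FPKM in both conditions. All 3 groups thus leaned the same way. The share called lower was 51.4% for the members and 52.7% for the respiratory chain rows. It was 10.1% for the cytosolic rows, beside 26.3% of all tested rows. The levels also differ, with median attached FPKM of 30.9 in the members, 229 in the cytosolic and 89.7 in the respiratory chain rows, and no test between the groups was run.

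**Figure D5:**
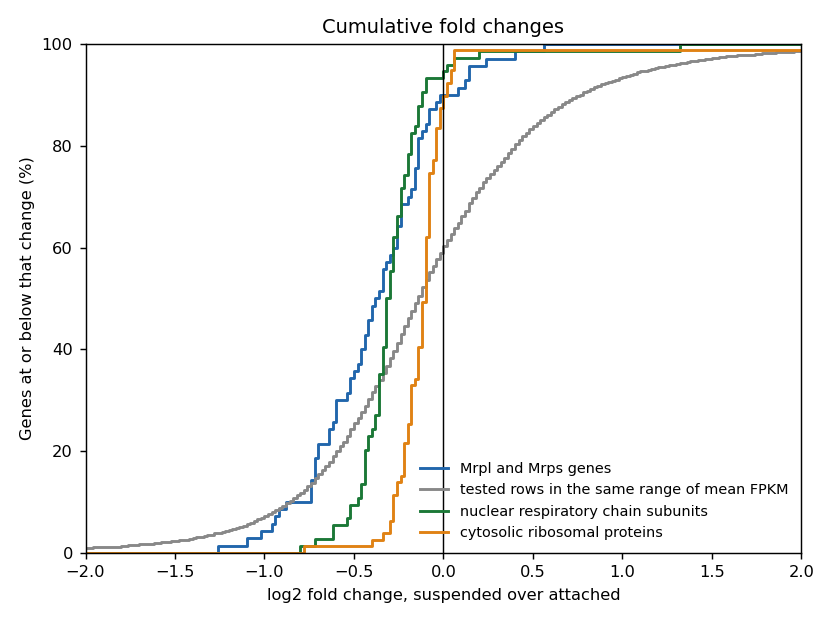
Share of genes (percent, vertical) at or below each log2 fold change (horizontal, shown from -2 to 2) for the members, tested rows in the same range of mean FPKM, respiratory chain subunits and cytosolic ribosomal proteins, from the authors' deposited table. The curve of the members crosses 0 at 90.0%, against 60.2% for rows in the same range.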

How the data were processed

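RNA of cultured mouse kidney epithelial cells was purified with DNase digestion and messenger RNA was sequenced on an Illumina HiSeq, per the labels' protocols, in 6 libraries, 3 per condition. TopHat, Bowtie, Cufflinks 1.0.3 and Cuffdiff are named with build mm10, per the submitters' processing notes; settings, annotation and use of strand are not stated in the labels.

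The authors deposited FPKM per condition, pooled over libraries, and their comparison as a log2 fold change, a test score, a p-value and a q-value per gene, per the file headers. In that comparison the conditions are named BBCA and BBCS, which the labels do not define. The last letter of each condition name, A or S, was taken to mean attached or suspended. The smallest p-value deposited is 5e-05, which gives the q of 0.000185 that 13 members share. No test across genes was refitted, because no values per library were used.

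From the deposited values, counts of calls, medians and FPKM sums were computed with pandas 2.3.3, SciPy 1.17.1 and NumPy 2.4.6 under Python 3.11.15, with figures by matplotlib 3.10.9, and the adjustment code was tested on simulated data. Positions were written from 1. All 70 members were found in GENCODE M21 (GRCm38) and overlapped their rows. Of 152 listed symbols 149 matched a row naming 1 gene, older names through RefSeq synonyms. Named genes were the 10 highest and 10 lowest members by log2 fold change, the 5 with the highest and the 3 with the lowest mean FPKM, all called higher, a fixed set and called examples per list; further ones, and the groups by place in the ribosome, were chosen after values were seen. The members and lists were chosen with earlier results of these data known. Alternatives covered the threshold, a minimum fold, the adjustment, a low-value filter, pseudocounts, scaling and members left out.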

Additional observations from a re-analysis of the deposited data

How the results depend on the processing

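The count of members called lower, 36 as deposited, was 27 at q below 0.01, 44 at q below 0.1, 37 with a Benjamini-Hochberg adjustment recomputed from the deposited p over the tested rows (Mrpl43, q = 0.0509, was added) and 36 among rows reaching 5 FPKM in either condition. Requiring a change of at least 1.5-fold left 19, and at least 2-fold left 3, of which 1 remained at 2-fold after centring and 2 after scaling to the same sum, both described next. The count called higher, 1, fell to 0 at q below 0.01, at 1.5-fold and at 2-fold. The median log2 fold change of the members, -0.38, was -0.27 when centred on rows of at least 1 FPKM in both conditions, whose median is -0.11, and -0.28 when FPKM were scaled to the same sum without mitochondrially encoded and microRNA rows. Under either scaling 59 members stayed below 0 in place of 63, and no called member changed sign. With pseudocounts of 1 and 0.1 FPKM, without members that share exon sequence and without Mrps36, the median ran from -0.39 to -0.36. No paired analysis was possible because the deposited table holds 1 value per condition, and leaving out each replicate was not run for the same reason. Depth is unknown, so no limit from depth can be given.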

Other observations

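Of 11 tested regulators of mitochondrial biogenesis 4 (36.4%) were called higher and 2 (18.2%) lower, beside 24.7% and 26.3% of all tested rows, and 7 had lower FPKM in suspension. Ppargc1a, a coactivator that raises mitochondrial biogenesis, went up from 1.03 to 6.90 FPKM (q = 0.000185) per the authors' deposited table. Gabpa (19.0 to 27.9 FPKM, q = 0.00241), the GABP subunit that binds the ETS letters, and its partner subunits Gabpb1 (13.8 to 23.8 FPKM, q = 0.000185) and Gabpb2 (8.15 to 14.3 FPKM, q = 0.000185) were called higher too per the authors' deposited table. Pprc1, a related coactivator, went from 15.6 to 4.45 FPKM and Myc from 55.4 to 31.6 FPKM (both q = 0.000185) per the authors' deposited table. Nrf1, Yy1, Esrra, Tfam and Perm1 were not called.

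Genes that keep mitochondrial DNA had 3 of 10 (30%) called higher and 1 lower per the authors' deposited table, a share called higher near the 24.7% of all tested rows. The 3 supply nucleotides to mitochondria: Tk2 went from 15.2 to 19.2 FPKM (q = 0.0155), Dguok from 11.6 to 15.9 FPKM (q = 0.00875) and Rrm2b from 13.7 to 19.2 FPKM (q = 0.00213) per the authors' deposited table. Peo1 (Twnk), the replicative helicase, whose gene is the head-to-head neighbour of Mrpl43, went from 7.99 to 5.10 FPKM (q = 0.000185) per the authors' deposited table.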
